A study of Drosophila melanogaster with 2 samples.

Results

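The epidermal growth factor receptor (EGFR) pathway genes Egfr, spi, rho, pnt, aop, aos, vn, sty, kek1 and S (Star) were examined for chromatin binding of Bgb (Big brother) in Drosophila embryos. They are 10 of the 13968 protein-coding genes on the chromosome arms in the Ensembl annotation of the dm6 build, taken by gene name and not by their signal. A peak was assigned to a gene when its summit lay between 2 kb upstream of the gene start and the gene end. The chromatin immunoprecipitation and sequencing (ChIP-seq) used whole embryos 0 to 24 h old from flies of 1 strain with a transgene for a Bgb-eGFP fusion. There was 1 group of 2 samples, which the labels number as biological replicates without saying whether the embryos came from separate collections. The labels name an anti-GFP antibody in one entry and Bgb in another, and which was used is not settled here. No untagged strain and no control library was analysed here, so signal could not be set against a background measured in the same way. In whole embryos, binding in few cells and weak binding in many cells cannot be told apart.

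In the EGFR pathway a ligand binds the receptor tyrosine kinase Egfr, which acts through Ras, Raf and MAP kinase on nuclear ETS factors. The main embryonic ligand, spi, is made as a membrane precursor that must leave the endoplasmic reticulum and be cut before it can signal, so processing, above all by rho, limits where the pathway is active. Several of its targets encode inhibitors that feed back on the receptor or on the Ras cascade. Bgb, a fly counterpart of CBF-beta, does not touch DNA itself and acts through Runt domain proteins that do.

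Peaks were found at 9 of the 10 genes in the conservative peak list, which holds 4488 peaks that passed an irreproducible discovery rate (IDR) of 1% between the replicates. The receptor, both ligands, both ligand-processing genes, the activator pnt and the inhibitors aos, sty and kek1 had such a peak, and the repressor gene aop had none. Among all protein-coding genes 37.4% had a conservative peak in the same kind of window. The pathway genes are long, with a median window of 25 kb against 4.2 kb for all genes. Among the 3156 genes with windows as long as theirs (7.1 to 57.9 kb) the share was 53.1%. The genes were proposed with earlier results of these data known, so the 9 of 10 is given as a description with no test.

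**Figure D1:**
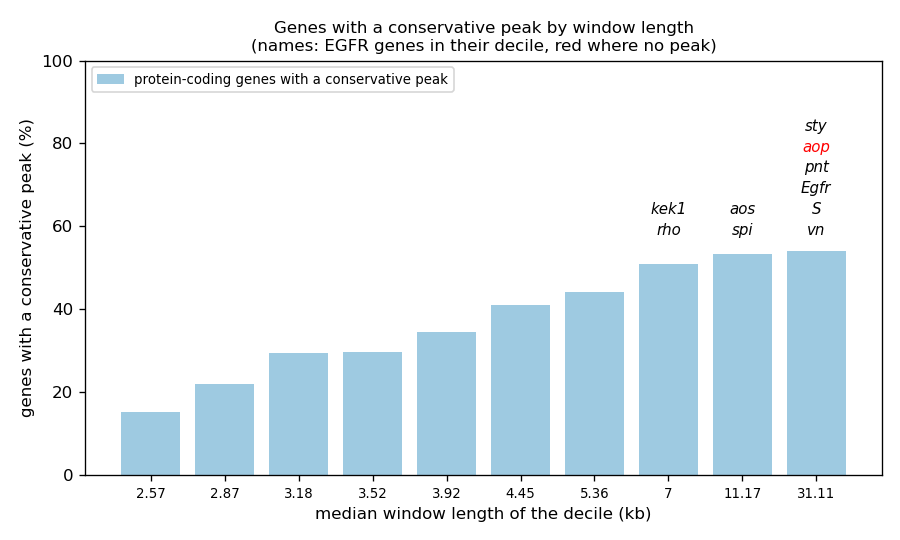
Share of protein-coding genes with a conservative peak (bars, in percent) in each decile of genes by window length, labelled by its median length in kb. The names stand above the decile that holds each EGFR pathway gene, with aop, which had no conservative peak, in red. All 10 genes fell in the 3 deciles with the longest windows, where 51.0, 53.3 and 54.1% of genes had a peak.

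The count depended on the list. The shares of all genes given from here on are not matched for window length. The median window of all genes was shorter, at 4.2 kb against 25 kb. The second IDR-thresholded list of the series (6393 peaks) had a peak at 10 of 10 genes, against 45.2% of all protein-coding genes. The list of replicate 1 alone (6061 peaks) also had one at 10 of 10, against 43.7%. The list of replicate 2 alone (3200 peaks) had one at 6 of 10, namely spi, vn, S, Egfr, pnt and sty, against 29.5%. The same 6 genes were those with a peak in both replicate lists, against 28.3% of all genes. Thus rho, aop, aos and kek1 had a thresholded peak in replicate 1 and none in replicate 2, whose list is shorter. With an equal number of the strongest ranked peaks taken from each replicate, 7 genes had a peak in both. The share of all genes under that rule is not given here, so this count has no base to be read against.

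Most of the peaks were at the genes' own promoters, as were most peaks of the whole list at some promoter. Of 13 conservative summits, 10 lay within 1000 bp of a transcription start site (TSS) of the gene itself. In the whole list 89.6% of summits were within 1000 bp of a TSS of any gene, and for the 13 summits that count was also 10. The median distance to the nearest TSS of any gene was 192 bp for the 13 and 55 bp for the list. They belonged to 8 of the 10 genes, against 33.6% of all genes with such a summit. The 10 promoter summits had a median distance of 76.5 bp from the own TSS, with 6 of them within 100 bp, 6 upstream and 4 downstream. For 9 genes the own TSS was the nearest TSS of any gene to at least 1 conservative summit, against 25.4% of all genes. For aos this summit lay at the far end of the gene, 13218 bp from its TSS. The 3 summits away from a promoter were in introns of Egfr and pnt and in the last exon of aos.

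**Figure D2:**
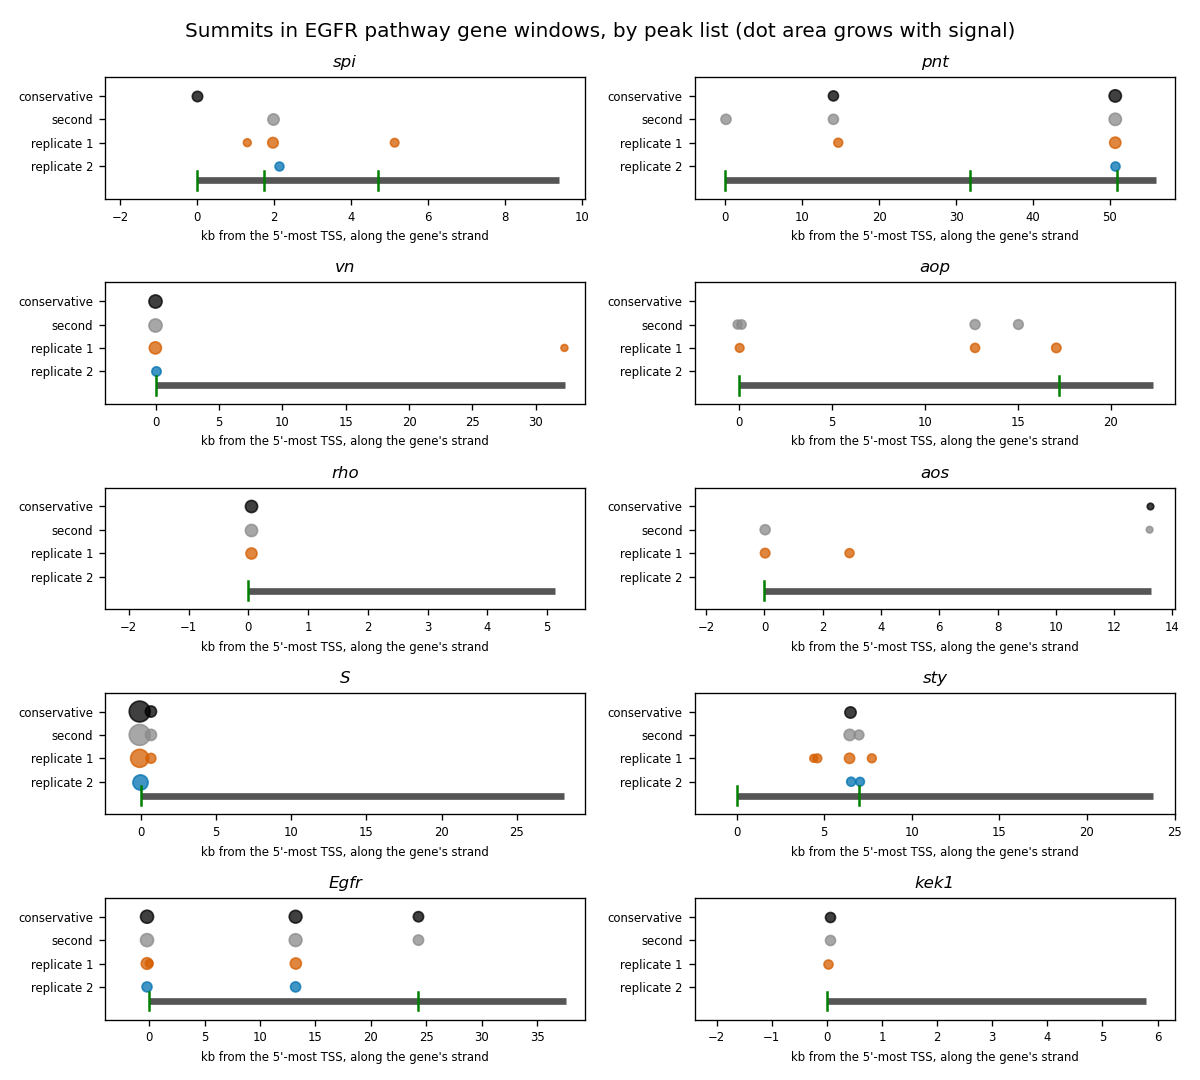
Position of every summit in the windows of the 10 genes, in kb from the most upstream TSS along the strand of the gene, in each of 4 peak lists. The bar is the gene, green ticks are its TSSs and the dot area grows with the signal in the authors' units. Dots sit at the first TSS in vn, rho, S and kek1, and the row of the conservative list is empty at aop.

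The genomic sequence under the summits that carry these results is shown here on the strand of each gene, 5′ to 3′, from the dm6 reference. Each window reaches 50 bp to either side of the summit. Capitals mark matches on either strand to CGATAA or CGATAG, named CGATAR here, to the GAGA letters GAGAG, or to the initiator letters TCAGTC or TCAGTT or TCATTC or TCATTT (Inr). The windows are those of the strongest peak, at S, then of the ligands, the protease gene rho, the activator pnt and the inhibitors sty and kek1.
S, 83 bp upstream of the TSS, chr2L:1077848-1077948, minus strand: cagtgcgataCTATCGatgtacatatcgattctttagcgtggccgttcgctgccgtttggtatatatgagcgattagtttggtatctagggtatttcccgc
vn, 13 bp upstream, chr3L:5845627-5845727, minus strand: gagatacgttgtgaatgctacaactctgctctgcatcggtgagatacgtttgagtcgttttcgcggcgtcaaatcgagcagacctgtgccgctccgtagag
spi, 4 bp upstream, chr2L:19577269-19577369, minus strand: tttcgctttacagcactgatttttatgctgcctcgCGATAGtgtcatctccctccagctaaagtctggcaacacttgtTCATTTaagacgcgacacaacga
rho, 49 bp downstream, chr3L:1463810-1463910, plus strand: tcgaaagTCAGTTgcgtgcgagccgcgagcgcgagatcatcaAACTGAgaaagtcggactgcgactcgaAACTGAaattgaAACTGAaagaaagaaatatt
pnt, 243 bp upstream of its most downstream TSS, chr3R:23295431-23295531, minus strand: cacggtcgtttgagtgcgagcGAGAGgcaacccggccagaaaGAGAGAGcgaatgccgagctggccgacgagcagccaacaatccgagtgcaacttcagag
sty, 516 bp upstream of its second TSS, chr3L:3418427-3418527, minus strand: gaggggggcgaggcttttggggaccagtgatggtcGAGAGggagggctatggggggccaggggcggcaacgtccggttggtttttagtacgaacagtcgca
kek1, 66 bp downstream, chr2L:12822671-12822771, minus strand: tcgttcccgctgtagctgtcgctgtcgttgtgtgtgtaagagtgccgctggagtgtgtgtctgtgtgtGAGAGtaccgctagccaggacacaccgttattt

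A match to the Runx consensus (AACCACA or AACCGCA or GACCACA or GACCGCA) was in none of the 13 conservative windows. It was reached at S when the window was widened to 100 bp to either side of the second summit, which lies 662 bp downstream of the TSS. That window is shown with only the Runx match in capitals, followed by the window of a summit at sty, 747 bp downstream of the second TSS, from the list of replicate 1 alone. The first match was centred 50 bp from its summit and the second 10 bp from its summit.
S, 662 bp downstream, chr2L:1077049-1077249, minus strand: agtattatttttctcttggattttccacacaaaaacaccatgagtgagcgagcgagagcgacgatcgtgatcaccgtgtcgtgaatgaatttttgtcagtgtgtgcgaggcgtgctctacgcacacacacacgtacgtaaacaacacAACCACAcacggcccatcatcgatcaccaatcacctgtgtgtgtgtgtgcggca
sty, replicate 1 summit, chr3L:3417164-3417264, minus strand: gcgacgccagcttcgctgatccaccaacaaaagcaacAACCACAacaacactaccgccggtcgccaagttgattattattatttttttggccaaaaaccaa

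The ligand genes differed in how steadily their promoters were called. The single TSS region of vn, which encodes a secreted neuregulin-like ligand (FBgn0003984, chromosome 3L, 5813338 to 5845664), had a conservative peak of signal 207 with its summit 13 bp upstream. The signal there was 155 in replicate 1 and 52.8 in replicate 2, and the peak was in the thresholded list of each. Signals are those of the authors' peak caller, in its own units and with no stated scaling between the libraries. The list of replicate 1 held 1 more summit in vn, of signal 7.84 at the end of the gene, nearer to the TSS of mad2.

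The gene spi, for the TGF-alpha-like ligand (FBgn0005672, 2L, 19567900 to 19577315), has 3 TSS regions. The conservative peak was at the most upstream of them, used by spi-RA and spi-RF, with signal 83.7 and the summit 4 bp upstream. The ranked lists, which carry no threshold, gave 48.1 for replicate 1 and 27.9 for replicate 2 at that place. A gene transcribed in the other direction starts 386 bp from this first TSS. A stronger peak was at the second region, of spi-RG. In the second series list it had signal 116 with the summit 242 bp downstream. Replicate 1 had 88.2 at the same position and replicate 2 had 41.4 at 410 bp downstream. The peak of 116 had a −log10 IDR of 0.18 between the replicates, where the conservative list begins at 2.0. At the third region, of spi-RB and spi-RE, the strongest ranked peak of the series had 59.6. The conservative list therefore did not hold the strongest promoter peak of spi. Neither the second series list nor the thresholded lists of the single replicates held a peak at its first TSS.

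The ligand-processing genes held the strongest peak of the 10 genes, at S, and a peak near the middle of the list, at rho. S, which encodes a transmembrane protein that carries spi from the endoplasmic reticulum to the Golgi (FBgn0003310, 2L, 1049674 to 1077815), had a peak of signal 939, rank 67 of 4488. It reached 593 in replicate 1 and 339 in replicate 2, ranks 70 and 90 of their ranked lists. Both values were above those of every other conservative peak of the 10 genes in either replicate. This peak is shared with a neighbour. The summit was 83 bp upstream of the TSS of S and 50 bp from the TSS of ast (asteroid), which is transcribed in the other direction from a start 133 bp away. The peak cannot be assigned to S alone.

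The second peak of S, in a noncoding part of an exon 662 bp downstream of the TSS, had signal 114, with 66.4 in replicate 1 and 38.6 in replicate 2. It was in the thresholded list of replicate 1 and not of replicate 2. The gene rho, for the intramembrane protease that cuts spi (FBgn0004635, 3L, 1463811 to 1468944), had 1 conservative peak of signal 156, with its summit 49 bp downstream of the TSS. Replicate 1 gave 109.5 and replicate 2 gave 42.2, with summits 45 and 54 bp downstream. The places of the summits were thus close while the signals differed by a ratio of 2.59, and the replicate 2 peak was not in its thresholded list.

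Egfr, the receptor gene (FBgn0003731, 2R, 21522420 to 21559977), had 3 conservative peaks, more than any of the other 9 genes. The first was 192 bp upstream of the Egfr-RA TSS (21522040 to 21522415), with signal 199, 130.2 in replicate 1 and 70.8 in replicate 2. A gene transcribed in the other direction starts 572 bp from that TSS. The second peak was in an intron (21535583 to 21535702), with signal 185, 111 in replicate 1 and 73.9 in replicate 2. In replicate 2 this intronic peak was slightly above the promoter peak, and in replicate 1 it was below. Its nearest TSS was that of CG30286, 1165 bp away, and it lay 11013 bp upstream of the Egfr-RB TSS. The third was 70 bp downstream of the Egfr-RB TSS (21546525 to 21546900), with signal 79.8, 39.6 in replicate 1 and 34.2 in replicate 2. The summits of the first and last were at most 1 bp apart between the conservative list and either replicate. The Egfr-RB peak was in the second series list but in neither thresholded replicate list.

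The ETS factor genes stood apart from each other. The activator gene pnt (FBgn0003118, 3R, 23290231 to 23346167) had a conservative peak of signal 163 at its most downstream TSS region, of pnt-RC and pnt-RE, with the summit 243 bp upstream (23295293 to 23295668). Replicate 1 gave 115 and replicate 2 gave 46.2, both in their thresholded lists. Its other 2 TSS regions had no conservative peak. At pnt-RB the second series list had signal 73.9 with the summit 90 bp downstream and a −log10 IDR of 1.94, just short of the conservative list. At pnt-RD no thresholded list had a summit, and the ranked list of the series had 63.3 at 57 bp upstream, with 1.68. An intronic peak of 73.3 (23331923 to 23332298), 14056 bp downstream of the pnt-RB TSS and 1692 bp from the start of lncRNA:CR46090, passed with a −log10 IDR of 2.24. Its signal was below that of the pnt-RB peak which did not pass, and the replicates gave 39.7 and 35.1.

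The repressor gene aop, also called yan (FBgn0000097, 2L, 2156484 to 2178754), was the gene without a conservative peak. Its strongest ranked peak had signal 74.0 at 161 bp upstream of the aop-RA and aop-RD TSS, which is more than the conservative peaks at kek1 and in the pnt intron had. The replicates had 53.9 and 15.9 there, and the −log10 IDR was 0.23. At the upstream TSS region, of aop-RB, aop-RC and aop-RE, the ranked signal was 50.6, with 34.2 in replicate 1 and 14.2 in the overlapping peak of replicate 2. The strongest peak of replicate 2 within 1000 bp, 25.2, lay 816 bp downstream. The second series list had 4 summits in aop, the highest of signal 66.8, and the list of replicate 1 had 3. Replicate 1 thus had the higher signal at both aop promoters.

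Of the feedback inhibitor genes, kek1 and aos had the lowest maxima among the 9 genes with a conservative peak, and sty lay between rho and spi. For kek1, which encodes a leucine-rich repeat transmembrane protein that binds and inhibits Egfr (FBgn0015399, 2L, 12817000 to 12822787), the peak had signal 72.7 and a summit 66 bp downstream of the only TSS region. The replicates gave 44.6 and 36.3, with the replicate 2 peak outside its thresholded list. For sty, an intracellular inhibitor of Ras signalling (FBgn0014388, 3L, 3401153 to 3424935), the peak of 117 lay in an intron of sty-RC, 516 bp upstream of the sty-RB TSS. Replicate 1 gave 78.8 and replicate 2 gave 44.7, both in their thresholded lists. A weaker peak of 62.1, 15 bp downstream of the same TSS, was in the second series list with a −log10 IDR of 1.96. There replicate 2 was slightly higher, with 35.8 against 32.5, and only replicate 2 had it in its thresholded list. The upstream sty-RC promoter had no summit in any thresholded list. Its strongest ranked peak within 1000 bp had 17.5 in replicate 1 and 20 in replicate 2.

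The conservative peak of aos was unlike the other 12. The gene encodes a secreted antagonist that sequesters spi (FBgn0004569, 3L, 16470386 to 16483650). The peak had a signal of 4.56, rank 4468 of 4488, and lay at the 3′ end of the gene. A conservative peak of signal 87.4 had its summit 200 bp further on, beyond the gene end. The replicate peaks that overlap the weak one, of 47.4 and 44.9, had their summits 159 and 217 bp further on as well, so those values belong to the neighbouring summit. Of the whole conservative list, 96 peaks (2.14%) had a signal under 20. At the promoter of aos the second series list had a signal of 71.3 with the summit 24 bp downstream. There replicate 1 had 56.7, the overlapping ranked peak of replicate 2 had 19.6, and the −log10 IDR was 0.92. Counted by promoter, aos thus joined aop among the genes without a conservative peak.

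Across all promoters of the 10 genes, with TSSs up to 100 bp apart joined, 9 of 17 had a conservative summit within 1000 bp, against 31.1% of the 18945 promoters of protein-coding genes. The second series list had a summit at 12, against 38.6%, the list of replicate 1 at 12, against 37.6%, and that of replicate 2 at 6, against 23.7%. At least 1 of these 4 lists had a summit at 15 of 17, against 42.1%, and the exceptions were the promoters of pnt-RD and sty-RC. Of the 5 genes with more than 1 promoter, Egfr had a conservative summit at both, spi, pnt and sty at 1 each and aop at none.

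**Figure D3:**
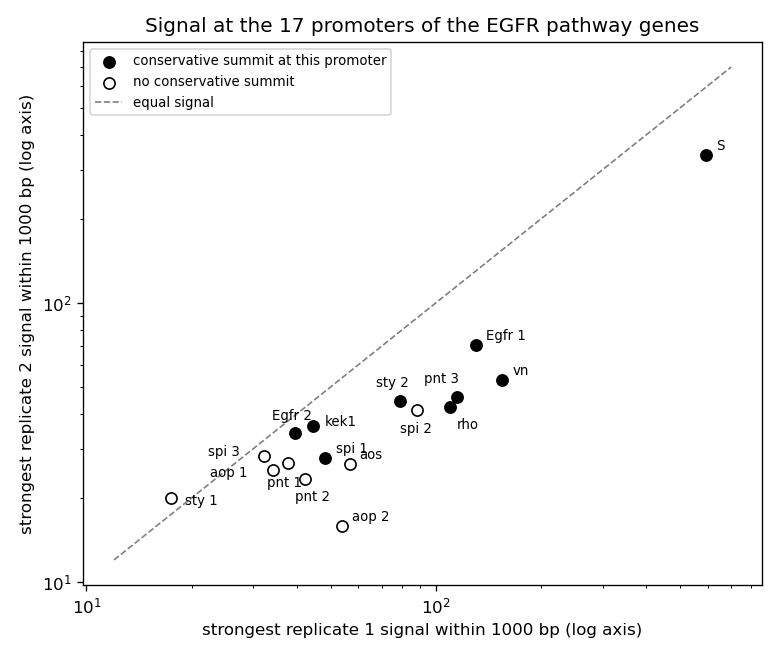
Strongest ranked signal within 1000 bp of each of the 17 promoters in replicate 1 (x axis) and replicate 2 (y axis), in the authors' units on log axes. Promoters of 1 gene are numbered from the most upstream, filled points have a conservative summit and the dashed line marks equal signal. Of the 17 points, 16 lie below the line, with sty 1 (sty-RC) above it and S far to the upper right.

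The order of the genes by their strongest peak held in part between the replicates. In the unthresholded list of replicate 1 the order was S with 593, vn with 155, Egfr with 130.2, pnt with 115, rho with 109.5, spi with 88.2, sty with 78.8, aos with 56.7, aop with 53.9 and kek1 with 44.6. In replicate 2 it was S with 339, Egfr with 73.9, vn with 52.8, pnt with 46.2, sty with 44.7, rho with 42.2, spi with 41.4, kek1 with 36.3, aos with 27.1 and aop with 26.5. The strongest peak was not always at the same place. It was 192 bp upstream of a TSS in replicate 1 and in the intron in replicate 2 for Egfr, at -161 and -2261 bp from a TSS for aop, and 24 and 6450 bp downstream for aos. S was the highest and aop, aos and kek1 were the lowest in both. Egfr and vn changed places, and pnt, sty, rho and spi were so close in replicate 2 that their order there is not resolved. These differences were not tested.

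As a group the 13 conservative peaks were of ordinary strength. Their median signal was 117, from 4.56 to 939, and that of the whole list was 144 (interquartile range 95.3 to 261). Of the 13, 6 were above the median of the list and 5 were under 100, against 27.9% of the list under 100. Without aos, whose replicate values come from a neighbouring summit, the ranked signal was higher in replicate 1 at 12 of 12, with a median ratio of 1.73 (1.13 to 2.93). The whole list had the same direction at 92.5% of 4453 peaks and a median ratio of 1.60 (interquartile range 1.30 to 1.97). Both replicate summits were within 50 bp of the conservative summit at 11 of 13 peaks, with aos and sty as the exceptions. The share of the whole list is not given here for this count. A peak of the thresholded list of replicate 1 overlapped 10 of the 13 by at least 1 bp, against 90.8% of the list. The 10 include aos, where the overlapping peak belongs to the neighbouring summit. For replicate 2 such an overlap was found at 6 of 13, against 67.8%.

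**Figure D4:**
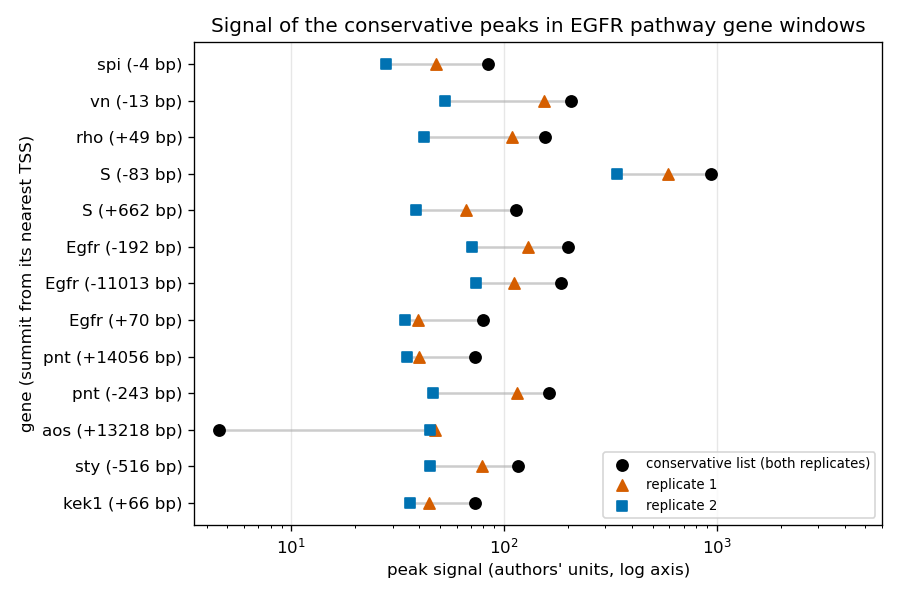
Signal of the 13 conservative peaks (rows, with the distance of the summit from the nearest TSS of the gene) in the authors' units on a log axis, for the conservative list and for the overlapping ranked peak of each replicate. The S peak at -83 bp lies to the right of the rest in all 3. At aos the conservative signal of 4.56 is below both replicate values, which come from a neighbouring summit.

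The sequence under the summits varied. The G and C content of the 13 windows ran from 25.7% at aos to 63.4%, with a median of 45.5% against 44.6% for the conservative list. CGATAR was in 3 of 13 windows, those of the first spi promoter, the S promoter and the pnt intron, and in 38.1% of all conservative windows and 16.9% of windows at 19275 protein-coding TSSs. The longer DRE element TATCGATA, which can share bases with it, was in 0 of 13 against 15.2% and 4.48%, and GGTCACAC, the letters searched for M1BP, in 0 of 13 against 4.32% and 4.67%. GAGA was in 5 of 13, at the second S peak, at Egfr-RB, at pnt-RC, at sty and at kek1, against 13.5% and 12.7%. Inr was in 3 of 13, at spi, rho and the second S peak, against 21.7% and 34.9%. With so few windows these counts describe the 13 sequences only.

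Runx letters were in 0 of 13 windows, and in 4.72% of all conservative windows and 4.97% of those at TSSs. In windows of 100 bp to either side they were in 2 of 13, the second S peak and the Egfr-RA promoter, against 8.96% of the list. In both cases the letters were AACCACA, centred 50 and 63 bp from the summit. Of 23 summits in the list of replicate 1, 3 had a match within 50 bp. These were at the third spi promoter (signal 32.3), at the second S peak (66.4) and in sty (38.7). The share over all windows of that list is not given here, so this count has no base to be read against. The ETS letters CGGAAA or CGGAAG, bound by the class of factors to which pnt and aop belong, were in 0 of 13 against 8.4% of the list and 9.01% of TSS windows. A match is a run of letters and not a measured binding site.

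Of 25 further genes of the pathway, listed by their known roles, 15 had a conservative peak, against 37.4% of all protein-coding genes and 44.4% of the 9304 with windows in the range of these 25 (3.4 to 86.4 kb). Their median window was 8.2 kb, and in the deciles of median 7.0 and 11.17 kb the share was 51.0 and 53.3%. A summit within 1000 bp of an own TSS was found for 11, against 33.6% of all genes. For 14 the own TSS was the nearest protein-coding TSS to a summit, against 27.2%. Their 20 summits had a median signal of 97.7, from 17.2 to 424. By role the count was 1 of 2 ligands, 3 of 5 genes of ligand processing, 6 of 11 of the Ras cascade, 4 of 5 negative regulators and 1 of 2 nuclear factors. In the 56.5 kb window of rl, a Ras cascade gene singled out after its values were seen, the unthresholded ranked list of the series had 0 peaks. Ras85D also counts as without a peak here, and its ranked peak is described at the end. The list of replicate 1 had a peak at 17 of the 25, against 43.7% of all genes, and that of replicate 2 at 10, against 29.5%.

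Krn, Shc, stet, Raf, dos and cnk in this wider list had peaks above every maximum of the 10 genes but that of S. Over all conservative summits the wider list was lower, with a median of 97.7 against 117. The ligand gene Krn, for a second TGF-alpha-like ligand, had the highest, with 424 at 104 bp upstream. The adaptor gene Shc followed with 347 at 107 bp upstream, and then stet, a rhomboid-family gene, with 272 in an intron 729 bp from its TSS and 79 bp from the start of a small noncoding RNA gene. The kinase gene Raf had 259 at 46 bp, the adaptor gene dos 217 at 64 bp and the scaffold gene cnk 169 at 57 bp from the TSS. A stronger peak in the cnk window, of 216, was 1186 bp upstream of a cnk TSS and 184 bp from the TSS of l(2)k01209. The phosphatase gene csw had 142 at 32 bp and ed, for a cell adhesion protein that antagonises the receptor, had 189 and 95.3. The stronger ed peak was 768 bp from the ed TSS and 96 bp from an annotated INE-1 element. The noncoding neighbours of stet, ed and ru were singled out after their values were seen.

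Lower signals were found at other inhibitors and at the remaining named genes. Mkp3, for a phosphatase that acts on MAP kinase, had 94.4 at 37 bp and PTP-ER, for another such phosphatase, had 81.2 at 84 bp from the TSS. RasGAP1, listed as Gap1 and encoding a Ras GTPase-activating protein, had 3 intronic summits of 76.7, 65.8 and 17.2. The summit of 65.8 was nearer to the TSS of Cdk8, at 8140 bp, than to that of RasGAP1, at 8475 bp. The peaks of 65.8 and 17.2 overlapped the same replicate peaks, of 35.8 and 31.5, so the replicate values do not separate them. The rhomboid-family gene rho-4 had an intronic peak of 78.0. A peak of 94.3 in an intron of ru, another gene of that family, was 9342 bp from its TSS and 36 bp from a glutamate tRNA gene. The gene edl, for a protein that binds the ETS factors of the pathway, had 98.9 at 33 bp from the TSS.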

How the data were processed

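The files hold peak lists on dm6 for 2 samples of 1 group, and no reads, so the read depth is unknown and no interval or floor is given. The signal of each peak is the authors' value, deposited with no stated scaling, and per the deposited readme text the thresholded lists passed IDR. The authors also deposited a −log10 IDR per ranked peak of the series. On those values the conservative list begins at 2.0. Which aligner and peak caller made them is not given in the sources used here.

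Summits were placed on Ensembl release 115 genes, with windows from 2 kb upstream, and motifs were searched on both strands in 101 bp. Replicate signals are those of the strongest overlapping ranked peak. The 10 genes were all named. Of the wider list a gene was named when its own protein-coding TSS was nearest to a conservative summit, and a neighbour only where a summit was nearer to it. Members and lists were chosen with earlier results of these data known. The assignment of summits was tested on simulated data. Alternatives covered peak list, threshold, replicate, gene and motif window, TSS distance and set, and overlap rule. Tables were made with pandas 2.3.3 and numpy 2.4.6 in Python 3.11.15, and figures with matplotlib 3.10.9.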

Additional observations from a re-analysis of the deposited data

How the results depend on the processing

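Counts of genes, summits and windows, which have no direction, stayed within 1.5 times of their value under 49 of 73 alternatives. The 49 include motif counts of 0 that stayed at 0, for which such a ratio is undefined. In the stronger 50% of peaks, a part of the same list, a count of 0 could not change. The 49 of 73 is therefore no measure of how stable the counts are. The stronger 50% of peaks left 5 of the 10 genes and 7 of the 25 further genes with a peak, 6 summits, 5 of them within 1000 bp of an own TSS, and 4 genes with the own TSS nearest. It also left 1 window each with CGATAR, GAGA and Inr. Shares over all genes and windows under that cut are not given here. The second series list gave 20 summits, 1 window with ETS and 5 with Inr. Windows of 100 bp to either side gave 2 with Runx, 1 with M1BP and 10 with Inr. Among all conservative windows of that length the shares were 8.96% for Runx, 7.55% for M1BP and 41.7% for Inr. With either replicate left out, the genes with a peak ranged from 6 to 10 (further genes 10 to 17), summits from 8 to 23, those within 1000 bp from 7 to 16, and genes with the own TSS nearest from 5 to 10. Windows then ranged from 0 to 3 for Runx, 1 to 2 for CGATAR, 2 to 3 for GAGA, 0 to 1 for ETS and 2 to 8 for Inr. Shares over all windows of the replicate lists are not given here. The cause of these shifts was not tested. Of 41 alternatives for the strongest signal of a gene, 15 moved it beyond the replicate spread. Those with a replicate left out set the signal of a single replicate against that of the list made from both, which are unlike measures. At S these were 593 in replicate 1 and 339 in replicate 2, against 939. No paired analysis was possible because there was 1 group. Depth is unknown, and without a control library a weak peak cannot be set against background.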

Other observations

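Windows reaching 5 kb upstream added peaks near 3 of the genes. For aop it was a conservative peak of signal 91.6, 3331 bp from its TSS, which is the nearest protein-coding TSS. For spi it was a peak of 380.0 at 86 bp from the TSS of Pmvk, and for Egfr a peak of 434 at 52 bp from the TSS of CG10494. Pmvk and CG10494 were named after their values were seen.

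All 13 ranked peaks of the 10 genes with a −log10 IDR of at least 2.0 were in the conservative list. On the chromosome arms 143 ranked peaks of the series reached that value and were not in it. Ras85D, the Ras gene of the pathway, singled out after its values were seen, had such a peak 42 bp from its TSS, with signal 376, rank 655 and a −log10 IDR of 5.0, and no thresholded list had a peak in its window. The reason for its absence was not tested.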
